A study of Arabidopsis thaliana with 24 samples.

Results

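The 5 genes described here, AT5G55800, AT4G25780, SBTI1.1, AT5G67020 and AT1G45160, are 5 of 22746 probe sets measured on Affymetrix ATH1 arrays of Arabidopsis thaliana seedlings. They were chosen by their measured levels: the level of each on all 6 arrays of ethanol-treated ALC::TOC1 seedlings lay above its level on all 18 other arrays. That separation is therefore how the genes were picked and not a result, so it is given below as values with no test. Each gene is represented by 1 probe set, a group of short probes read together as 1 transcript.

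The 24 arrays fell into 8 groups of 3, which crossed genotype, light regime and treatment. In ALC::TOC1, an ethanol-responsive switch drives TOC1, and wild type was the Col-0 ecotype. All seedlings were 13 days old and had grown for 12 days in cycles of 12 h light and 12 h dark. For the last day they either went into constant light (LL) or remained in the cycles (LD). They were then submerged for 3 h in medium with 2.5% ethanol or, as a mock treatment, without ethanol, and collected at ZT1, 1 h after lights-on in the cycles. Every group, wild-type mock included, also received MG132, an inhibitor of the proteasome, stated as 20 mM. The labels do not say whether ALC::TOC1 is 1 transgenic line or several, how many seedlings made up a sample, or whether replicates were grown apart, and the p-values rest on the spread between these samples alone. A control line with the ethanol switch but no TOC1 behind it was not among the groups.

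TOC1 is a pseudo-response regulator of the plant circadian clock that accumulates in the evening and represses morning genes such as CCA1 and LHY. It is removed by the proteasome. In the ALC system, the fungal activator AlcR responds to ethanol and turns on a transgene placed behind a promoter it binds. Among the genes described, SBTI1.1 encodes a subtilisin-type serine protease (subtilase) that cleaves the precursor of phytosulfokine, a secreted peptide signal. AT4G25780 belongs to the CAP superfamily of small secreted proteins, which includes the pathogenesis-related protein PR-1. AT1G45160 is a protein kinase of the IRE type within the AGC class. No role is given here for AT5G55800 and AT5G67020. No probe set carried TOC1's name in the platform annotation used here, so its own induction was not analysed here. Whether any of the probe sets without a name reads TOC1 was not examined. A light difference in the level of TOC1 itself is therefore not known here. In the gene lists below, a gene is counted as measured where that annotation names a probe set for it alone, and the other listed genes were not analysed here.

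The deposited values are log2 levels, on which a difference of 1 is a doubling. Array medians lay between 5.14 and 5.41, and arrays of a group correlated at 0.9885 to 0.9968. Whether levels under about 4 lie above background was not tested, so the size of a difference that involves such a level is uncertain. In whole seedlings, a change in RNA per cell and a change in the number of expressing cells cannot be told apart.

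AT5G55800 stood furthest from its uninduced level. It measured 9.37, 9.77 and 9.89 on the induced LL arrays (ALC::TOC1 with ethanol) and 7.72, 8.17 and 8.34 on the induced LD arrays. The other 18 arrays lay between 3.02 and 3.73. Those 18 lie near the bottom of the scale in both genotypes and both light regimes, and the induced LL and LD arrays do not overlap. Ethanol in ALC::TOC1 was accompanied by a level 6.36 ± 0.17 higher than mock in LL (log2 difference ± SE) and 4.77 ± 0.17 higher in LD. On a linear scale those differences are 82.4-fold and 27.3-fold, with the mock level under 4.

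SBTI1.1 measured 8.46, 7.89 and 8.30 on induced LL arrays and 8.29, 7.91 and 7.54 on induced LD arrays. Its other arrays lay between 3.47 and 4.66. The induced light regimes overlap, and both are well apart from the remaining arrays. The level with ethanol in ALC::TOC1 exceeded that with mock by 3.90 ± 0.18 in LL and by 3.63 ± 0.18 in LD.

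AT4G25780 was similar in that its induced LL arrays, at 7.64, 7.98 and 7.91, overlapped its induced LD arrays, at 7.84, 7.79 and 7.32. The 18 other arrays ran from 3.74 to 5.64. The 2 highest of those were wild-type LD mock arrays, at 5.64 and 5.50. Ethanol minus mock in ALC::TOC1 was 3.52 ± 0.22 in LL and 3.33 ± 0.22 in LD.

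AT5G67020 measured 7.59, 7.49 and 7.82 on induced LL arrays, but 5.82, 5.84 and 4.999 on induced LD arrays. Its other arrays lay between 4.15 and 4.62. The induced LD arrays are thus closer to the uninduced level than to the induced LL arrays. Ethanol minus mock in ALC::TOC1 was 3.25 ± 0.16 in LL and 1.27 ± 0.16 in LD.

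AT1G45160 was the gene with the highest level without induction. It measured 8.002, 7.94 and 8.10 on induced LL arrays and 8.08, 8.08 and 8.14 on induced LD arrays. The other 18 arrays lay between 5.62 and 6.45, above the median of every array. For this kinase gene the data show a higher level under induction rather than a switch from no signal. Its level with ethanol in ALC::TOC1 exceeded mock by 2.17 ± 0.13 in LL and by 1.73 ± 0.13 in LD.

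**Figure D1:**
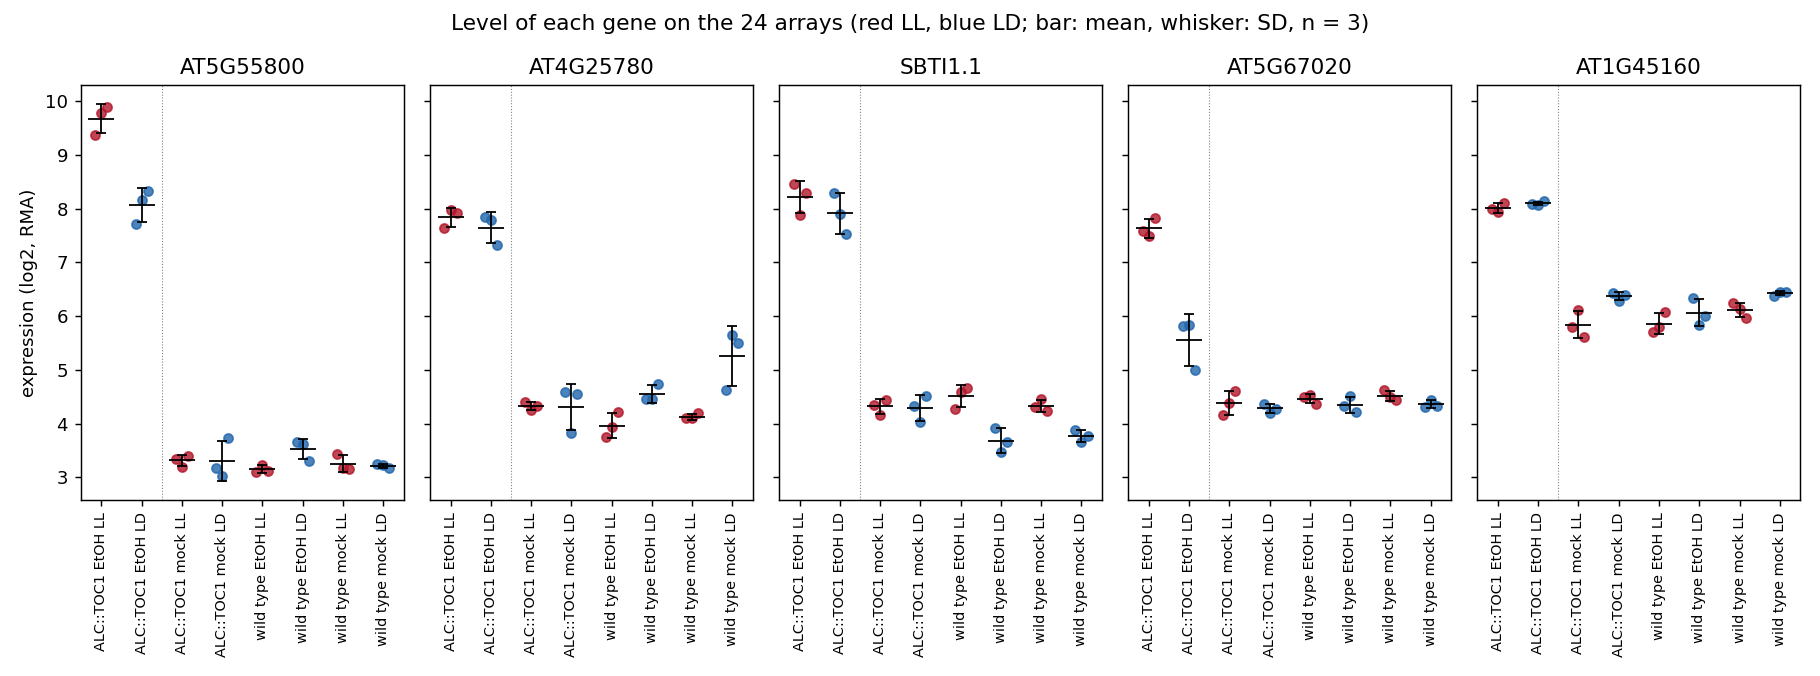
Log2 level of each gene on the 24 arrays, by group, with ALC::TOC1 ethanol arrays left of the dotted line. Points are arrays (red LL, blue LD), bars are means and whiskers are SDs of 3 arrays. The induced LL and LD arrays overlap for AT4G25780, SBTI1.1 and AT1G45160 and lie apart for AT5G55800 and AT5G67020.

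The order of the induced means in LL was AT5G55800 at 9.68 ± 0.28 (SD, n = 3), SBTI1.1 at 8.22 ± 0.30, AT1G45160 at 8.01 ± 0.08, AT4G25780 at 7.84 ± 0.18 and AT5G67020 at 7.63 ± 0.17. Probe sets differ in how brightly they bind, so this order is one of array signal and not of transcript number. Set against wild type under the same ethanol treatment, the 5 genes were likewise higher in ALC::TOC1. The log2 differences were 6.53, 3.71, 3.88, 3.17 and 2.15 in LL for AT5G55800, SBTI1.1, AT4G25780, AT5G67020 and AT1G45160. The corresponding differences in LD were 4.55, 4.23, 3.10, 1.20 and 2.04. Both sets of values share the induced arrays.

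The separation that defined the genes did not use the difference between light regimes within the induced arrays. However, 101 probe sets showed that separation, and these genes were taken from them with earlier results known. By LL minus LD under induction, AT5G67020 ranked 1st of the 101 and AT5G55800 4th. Whether the choice was independent of the light difference is therefore not known, and the p-values for light below may be affected by selection. With that limit, LL was tested against LD. The test was limma, a linear model fitted to all probe sets and arrays, with Benjamini-Hochberg adjustment over all probe sets. A probe set was called at an adjusted p under 0.05. In this comparison 21.9% of all probe sets were called, 11.2% as higher in LL and 10.7% as lower, so a call by itself is common.

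Of the 5 genes, AT5G67020 and AT5G55800 were higher in LL than in LD under induction, and the other 3 were not called. AT5G67020 averaged 7.63 ± 0.17 in induced LL seedlings and 5.55 ± 0.48 in induced LD seedlings (SD, n = 3 each). The log2 difference was 2.08 ± 0.16 (SE), a 4.23-fold difference, with limma's adjusted p at 1.17e-08. AT5G55800 averaged 9.68 ± 0.28 in induced LL seedlings and 8.08 ± 0.32 in induced LD seedlings, a log2 difference of 1.60 ± 0.17 or 3.03-fold (limma adjusted p 7.57e-07). For both genes each LL array lay above each LD array.

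For the other 3 genes the data bound the light difference rather than show its absence. The LL minus LD difference under induction was 0.30 for SBTI1.1, with a 95% interval from −0.06 to 0.67 (limma adjusted p 0.242). It was 0.20 for AT4G25780, with an interval from −0.26 to 0.65 (limma adjusted p 0.584). AT1G45160 gave −0.09, with an interval from −0.35 to 0.18 (limma adjusted p 0.692). A difference between these genes in their response to light was not itself tested.

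The light difference of AT5G67020 and AT5G55800 was not called without induction. In ALC::TOC1 mock seedlings, AT5G67020 averaged 4.38 ± 0.23 in LL and 4.28 ± 0.08 in LD (SD, n = 3 each), a log2 difference of 0.10 ± 0.16 (SE). AT5G55800 averaged 3.31 ± 0.10 in LL mock seedlings and 3.31 ± 0.37 in LD mock seedlings, a difference of 0.01 ± 0.17. Of all probe sets, 24.1% were called in that comparison. The rule placed these mock arrays below the induced arrays, and those of AT5G55800 lie under 4. The lack of a call under mock is therefore not independent of the choice. The ethanol effect itself, ethanol minus mock, was then compared between light regimes in ALC::TOC1, where 1.0% of probe sets were called. That effect was larger in LL by 1.98 ± 0.23 for AT5G67020 (limma adjusted p 0.000281) and by 1.59 ± 0.24 for AT5G55800 (limma adjusted p 0.00137). This contrast holds the same induced arrays as the light difference under induction, so the 2 are not separate tests. SBTI1.1, AT4G25780 and AT1G45160 gave 0.27, 0.19 and 0.44, with limma adjusted p from 0.338 to 0.903. The 95% interval of AT1G45160, from 0.07 to 0.82, lay above 0, though it is not adjusted for the number of probe sets. The intervals of SBTI1.1 (−0.24 to 0.79) and AT4G25780 (−0.46 to 0.83) included 0.

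Subtracting the same contrast in wild type, in which 0.189% of probe sets were called, left a light difference of 2.03 ± 0.33 for AT5G67020 and 2.01 ± 0.34 for AT5G55800 (limma adjusted p 0.0215 for both). These 2 calls were lost without 1 array: without induced LL array 3 the differences were 1.93 for AT5G67020 and 1.90 for AT5G55800, both with a limma adjusted p of 0.0521. Leaving out other single arrays gave differences down to 1.75 for AT5G67020 and 1.80 for AT5G55800. The adjusted p also depends on the other probe sets, and without induced LL array 3 calls over all probe sets fell from 43 to 2. For AT5G55800, part of the 2.01 came from wild type with ethanol, where its LL minus LD difference ran the other way, at −0.38 with a 95% interval from −0.73 to −0.03 (limma adjusted p 0.085, not called). Its wild-type ethanol means, 3.15 in LL and 3.53 in LD, lie under 4, so the size of that part is uncertain. The other 3 genes lay between −0.36 and 0.34 and were not called.

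RNA quality measures and cell type markers were compared between light regimes in the induced seedlings. The difference between the 3' and 5' control probe sets for GAPDH, which grows as RNA degrades, was 1.09 ± 0.11 in induced LL arrays and 0.834 ± 0.059 in induced LD arrays (log2, SD, n = 3 each), with no overlap. The same difference for actin ran the other way, also with no overlap, at 4.14 ± 0.16 in induced LL arrays and 4.54 ± 0.21 in induced LD arrays. For ubiquitin it was 0.951 ± 0.062 in induced LL arrays and 0.960 ± 0.059 in induced LD arrays. With the GAPDH difference as a covariate, the LL minus LD difference under induction was 2.13 for AT5G67020 (limma adjusted p 8.48e-08) and 1.45 for AT5G55800 (limma adjusted p 5.18e-06). With it, the light difference left after subtracting wild type was 1.69 for AT5G55800 and lost its call (limma adjusted p 0.0691), and 2.14 for AT5G67020 with its call retained (limma adjusted p 0.0336). Of 6 listed root hair markers 2 were measured, EXPA7 and EXPA18, expansins of root hair cells. They were higher in LL than in LD by 0.82 ± 0.15 and 0.63 ± 0.13 under induction and by 0.62 and 0.77 in ALC::TOC1 mock seedlings. Their mean level ran from 3.84 to 4.82 on induced arrays and from 3.58 to 4.81 on the other arrays. The part of these markers in the light differences was not tested.

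Of the other marker lists, guard cells had 1 of 3 measured (FMA, LL minus LD under induction −0.55, called), leaf photosynthetic cells 1 of 8 (PSBW, 0.46, called), roots 1 of 4 (PYK10, 0.21) and dividing cells 1 of 5 (KINESIN-12B, 0.37). These differences had the same sign without induction. In ALC::TOC1 mock, wild-type ethanol and wild-type mock seedlings, FMA gave −0.50, −0.78 and −0.67, all called. PSBW gave 0.47, 0.77 and 0.35, the last not called. PYK10 gave 0.51, 1.08 and 1.08, all called, and KINESIN-12B 0.35, 0.58 and 0.27, called only in wild-type ethanol. None of the 2 phloem and 4 seed markers was measured. No measured marker met the rule by which the 5 genes were chosen.

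**Figure D2:**
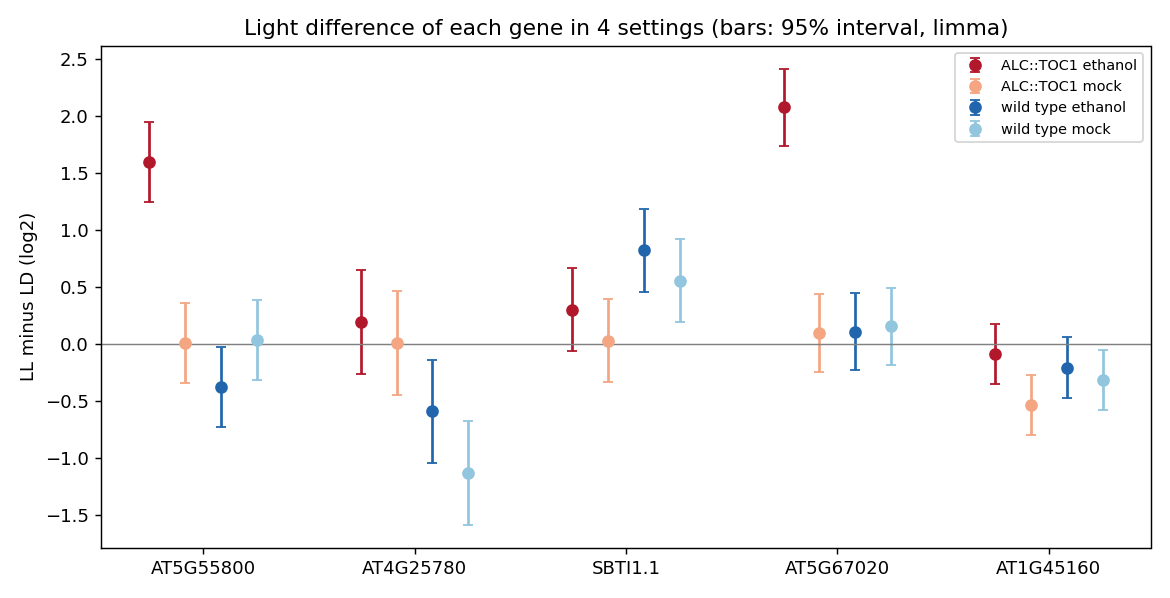
LL minus LD (log2) for each gene in ALC::TOC1 ethanol, ALC::TOC1 mock, wild-type ethanol and wild-type mock seedlings, with 95% intervals from limma. AT5G67020 at 2.08 and AT5G55800 at 1.60 stand above 0 under induction, while in the other 3 settings AT5G67020 lies between 0.10 and 0.16 and AT5G55800 between −0.38 (wild-type ethanol) and 0.04.

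Without induction, the genes with roles given above differed by light regime in ways of their own. AT1G45160 was lower in LL than in LD in ALC::TOC1 mock seedlings, at 5.84 ± 0.25 in LL and 6.37 ± 0.07 in LD (SD, n = 3 each). The log2 difference was −0.53 ± 0.13 (SE, limma adjusted p 0.00418, with 11.4% of probe sets called lower). Under induction the kinase gene ran from 7.94 to 8.14 over all 6 arrays, and the light regimes overlapped. The change of its light difference between mock and ethanol was not called (limma adjusted p 0.338).

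SBTI1.1 was higher in LL than in LD in wild type. With ethanol it averaged 4.51 ± 0.20 in LL and 3.68 ± 0.23 in LD, a log2 difference of 0.83 ± 0.18 (SE, limma adjusted p 0.000662), in a comparison where 38.9% of probe sets were called, 19.7% as higher and 19.2% as lower. With mock it averaged 4.33 ± 0.11 in LL and 3.77 ± 0.12 in LD, a difference of 0.56 ± 0.18 (limma adjusted p 0.0206), where 27.7% of probe sets were called, 13.3% as higher and 14.4% as lower. The mock call was lost with the GAPDH covariate (limma adjusted p 0.133) and without any of 3 arrays, array 2 of the LL group or array 2 or 3 of the LD group (0.0533 to 0.0825). In ALC::TOC1 mock seedlings the protease gene differed by 0.03 ± 0.18. Several of these levels lie under 4.

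AT4G25780 ran the other way in wild type. It averaged 4.13 ± 0.05 in wild-type LL mock seedlings and 5.26 ± 0.55 in wild-type LD mock seedlings (SD, n = 3 each). The log2 difference was −1.13 ± 0.22 (SE, limma adjusted p 0.000529). With ethanol the wild-type difference was −0.59 ± 0.22 (limma adjusted p 0.0369). That call was lost without any of 5 of the 6 arrays compared (0.0512 to 0.142) and with the GAPDH covariate (0.0502). AT5G55800 and AT5G67020 were not called for light in wild type.

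The wild-type groups give the ethanol difference without the transgene. In LL, 15.8% of all probe sets were called and none of the 5 genes was, their differences running from −0.26 for AT1G45160 to 0.18 for SBTI1.1. At an unadjusted p under 0.05 the count was also 0 of the 5, against 27.1% of all probe sets. The rule placed every wild-type ethanol array below the induced arrays, so it disfavoured genes that rise with ethanol in wild type. The low count is therefore partly set by the choice. The groups compared in LL also differ in RNA quality. The GAPDH difference described above averaged 1.45 ± 0.15 in wild-type LL mock arrays (log2, SD, n = 3). In wild-type LL ethanol arrays it averaged 1.02 ± 0.11, with no overlap. With it as a covariate, 2130 probe sets were called for ethanol in wild-type LL in place of 3591. In LD, 26.1% of probe sets were called, 14.9% as lower, and 2 of the 5 genes were lower. AT4G25780 averaged 4.55 ± 0.17 with ethanol and 5.26 ± 0.55 with mock, a log2 difference of −0.71 ± 0.22 (limma adjusted p 0.0192). AT1G45160 averaged 6.06 ± 0.25 with ethanol and 6.43 ± 0.04 with mock, a difference of −0.36 ± 0.13 (limma adjusted p 0.0387). Both changes run opposite in sign to the ethanol difference in ALC::TOC1. Neither call was stable: each was lost when the compared groups were fitted alone (0.0925 for AT4G25780 and 0.113 for AT1G45160). Leaving out single arrays also ended them, for AT4G25780 with any of 4 arrays (0.0627 to 0.125) and for AT1G45160 with any of 5 (0.0586 to 0.216).

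Without induction, 1 of the 5 genes was called between genotypes, in LD. Under mock in LL, 5.96% of all probe sets were called between genotypes and none of the 5 genes was, with differences from −0.27 for AT1G45160 to 0.20 for AT4G25780. At an unadjusted p under 0.05 the count was 1, AT1G45160, against 20.3% of all probe sets. The mock arrays too were among those the rule placed below the induced arrays, so these counts are not independent of the choice. RNA quality differed here as well. The GAPDH difference averaged 1.45 ± 0.15 in wild-type and 1.06 ± 0.20 in ALC::TOC1 LL mock arrays (SD, n = 3 each). With it as a covariate, 327 probe sets were called between genotypes under mock in LL in place of 1355. Under mock in LD, where 5.53% of probe sets were called and 2.50% called lower, AT4G25780 was lower in ALC::TOC1. It measured 4.58, 3.82 and 4.55 in ALC::TOC1 and 4.63, 5.64 and 5.50 in wild type, groups that do not overlap. The log2 difference was −0.94 ± 0.22 (limma adjusted p 0.0115). The call was lost without ALC::TOC1 array 2 or wild-type array 2 or 3 (0.0578 to 0.0842) and with these groups fitted alone (0.108). SBTI1.1 gave 0.52 ± 0.18 under mock in LD and was not called (limma adjusted p 0.0934).

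The rule that chose the 5 genes was applied to the whole table to see how many others it finds. It was met by 101 of 22746 probe sets (0.444%), of which 53 had 1 gene name. So 96 further probe sets, 48 of them named, shared the separation. In the opposite direction, with all 6 induced arrays below the other 18, there were 59 probe sets. The size of the separation was taken as the gap between the lowest induced array and the highest other array. The gap exceeded 1 for 9 probe sets above and for 0 below.

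AT5G55800 had the largest gap of all, 3.998, followed by SBTI1.1 at 2.88 and AT4G25780 at 1.67. AT1G45160 ranked 5th at 1.48. AT5G67020 ranked 32nd at 0.37, a gap set by its lowest induced LD array at 4.999 against 4.62 on the highest other array, and 27 probe sets outside the 5 genes had a larger gap. At the threshold, AT3G51100 and AT5G19730 had gaps of 0.0049 and 0.0004 and an unnamed probe set one of 0.0044. Just outside it lay AT3G06620 at −0.0015 and unnamed probe sets at −0.0003 and −0.0047. The values on either side of the threshold are thus nearly the same.

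**Figure D3:**
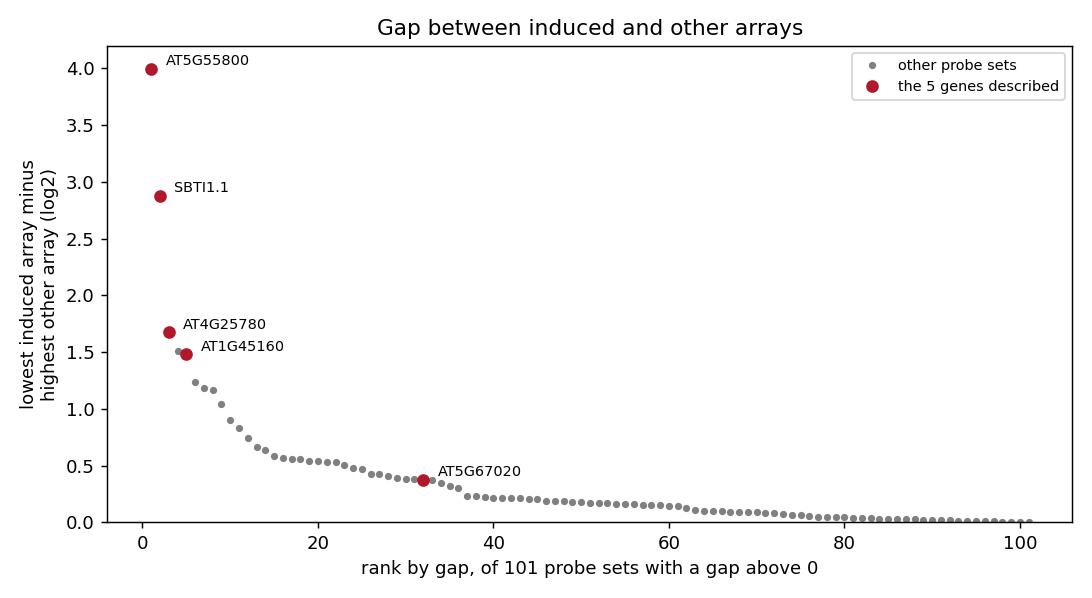
Gap in log2 units between the lowest ALC::TOC1 ethanol array and the highest other array, for the 101 probe sets in which it is above 0, ranked from the largest. Red points are the 5 genes described, which hold ranks 1, 2, 3, 5 and 32.

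The named genes with the next largest gaps were AT1G01390 at 1.24, GPDHp at 1.19, AGL30 at 0.83, AT5G28430 at 0.74, AT3G03680 at 0.57, AT1G17665 at 0.55, and AT3G63360 and AT1G03180 at 0.54 each. GPDHp encodes a plastid glycerol-3-phosphate dehydrogenase and AGL30 a MADS-box transcription factor. GPDHp measured 9.24, 9.13 and 9.09 on induced LL arrays and 8.93, 8.74 and 8.81 on induced LD arrays, with 5.70 to 7.56 on the other arrays. AT1G01390 measured 5.66, 5.37 and 5.87 on induced LL arrays and 5.21, 5.43 and 5.09 on induced LD arrays, with 3.38 to 3.86 on the other arrays.

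AT3G03680 was also higher in LL than in LD under induction. It measured 8.02, 8.04 and 8.43 on induced LL arrays, 6.92, 6.79 and 6.55 on induced LD arrays and 5.15 to 5.98 on the other arrays. Its LL minus LD difference under induction was 1.41 ± 0.18 (limma adjusted p 7.66e-06). The light difference of its ethanol effect was 1.70 ± 0.25 (limma adjusted p 0.00132).

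Among the 96 other probe sets that met the rule, 36 were called higher in LL under induction and 2 lower, UGT85A5 and AT5G22390. That is 37.5% called higher, against 11.2% of all probe sets. The median LL minus LD difference of the 96 was 0.25, against 0.04 over all probe sets. The light difference of the ethanol effect was called higher in LL for 9 of the 96 and lower for 0, against 0.396% of all probe sets called higher and 0.607% called lower. At the level of the interaction with genotype 6 were called higher and 0 lower, against 0.101% of all probe sets called higher and 0.0879% called lower. The 96 were picked by high levels on the induced arrays, so each carries a rise with ethanol in ALC::TOC1. Probe sets at large need not carry one, so their shares are not a matched comparison, and no conclusion is drawn from the excess. Ranked by the light difference under induction among all 101, AT5G67020 came 1st and AT5G55800 4th. SBTI1.1 came 47th, AT4G25780 56th and AT1G45160 83rd. The 2 genes between the first pair, AT3G62780 at 1.93 ± 0.17 and AT1G20030 at 1.70 ± 0.13, had small gaps of 0.14 and 0.19.

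**Figure D4:**
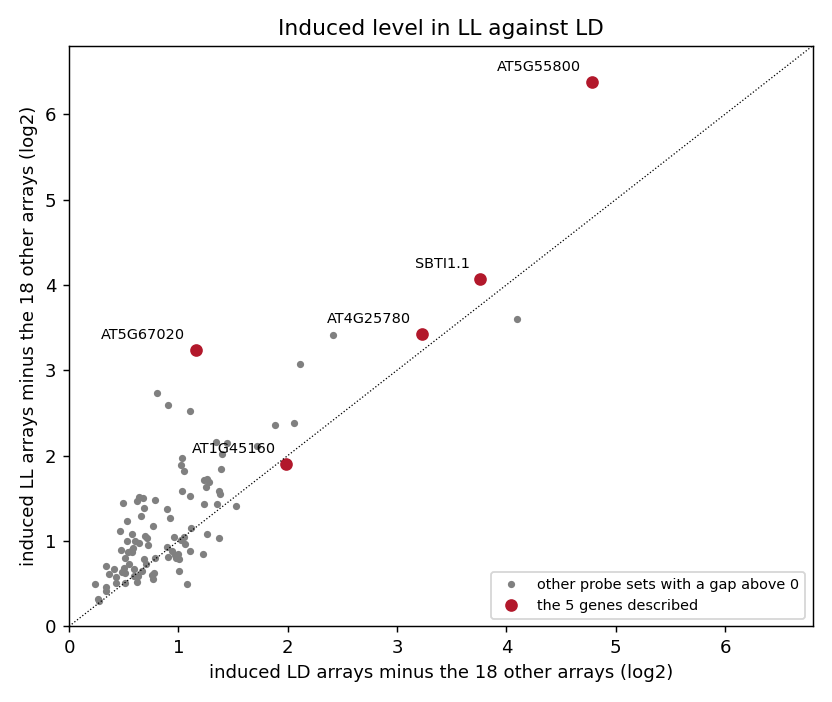
Mean of the induced LL arrays against mean of the induced LD arrays, each minus the mean of the 18 other arrays (log2), for the 101 probe sets that met the rule. On the dotted line LL and LD are equal. AT5G67020 and AT5G55800 lie above it by 2.08 and 1.60, while SBTI1.1, AT4G25780 and AT1G45160 differ from it by 0.30, 0.20 and −0.09.

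Across the 24 arrays the 5 genes correlated with each other at Pearson r from 0.81 (AT5G67020 with AT1G45160) to 0.97 (AT5G55800 with SBTI1.1). The choice of genes sets most of this, since each is high on the same 6 arrays. The named genes most like the mean scaled profile of the 5 were AT1G01390 at r = 0.989, AGL30 at 0.959, AT3G63360 at 0.950, AT3G03680 at 0.939, AT5G09430 at 0.919, AT3G51100 at 0.914, SLY2 at 0.909 and AT5G12260 at 0.903. SLY2 encodes an F-box protein of gibberellin signalling. Of these 8, 7 also met the rule, and AT5G12260 missed it by a gap of −0.04. SLY2 was higher in LL than in LD under induction by 0.88 ± 0.12 (limma adjusted p 1.76e-05), at 5.14 ± 0.06 in LL and 4.26 ± 0.24 in LD. The profiles most opposed were those of AT2G19460, AT1G52720 and AT1G72390, at r of −0.843, −0.840 and −0.838.

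Measured relatives were available for SBTI1.1 and AT4G25780. Of 53 listed subtilases 42 were measured, and of the 41 besides SBTI1.1, 1 met the rule, AT3G14067, with a gap of 0.17. The rule was met by 0.444% of all probe sets, so lists of this size would hold few or no such genes in any case, and the counts say nothing particular about these families. It measured 8.25, 8.50 and 8.44 on induced LL arrays and 8.10, 7.87 and 8.002 on induced LD arrays, with 6.76 to 7.70 on the other arrays. Its LL minus LD difference under induction was 0.41 ± 0.13 (limma adjusted p 0.029). Of the 41, 2 were higher in LL under induction (AT1G30600 at 0.47 and AT3G14067) and 3 lower, against 11.2% and 10.7% of all probe sets, and the median was 0.03, against 0.04. The lower ones were SBT3.5 at −1.59 ± 0.26, AT2G39850 at −1.23 ± 0.19 and TPP2, tripeptidyl peptidase II, at −0.38 ± 0.10.

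SBT3.5 was also lower in LL than in LD in the 3 uninduced settings, by −1.52 in ALC::TOC1 mock, −1.27 in wild-type ethanol and −1.56 in wild-type mock seedlings. Of 22 CAP genes 19 were measured, and 0 of the 18 besides AT4G25780 met the rule, against the same 0.444% of all probe sets. Under induction AT4G33730 was higher in LL by 0.44 ± 0.14 and AT4G33720 lower by −0.54 ± 0.17, both with levels under 4. That is 1 of 18 called in each direction, against 11.2% higher and 10.7% lower of all probe sets, and the median of the 18 was 0.12, against 0.04. Of the 4 IRE-type kinases only AT1G45160 had a named probe set, and of 9 phytosulfokine pathway genes 0 did. Of 19 clock genes GI and XCT were measured. GI, GIGANTEA, was lower in LL than in LD under induction by −1.03 ± 0.19 (limma adjusted p 0.000524). It was also lower in LL in the 3 uninduced settings, by −1.36 in ALC::TOC1 mock, −1.51 in wild-type ethanol and −1.38 in wild-type mock seedlings, all called. XCT gave −0.02 ± 0.09 under induction. Neither clock gene met the rule.

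The genes next to the 5 on the chromosome were examined from the gene order of the RefSeq annotation (TAIR10.1), 3 on each side. Of 30 such neighbours 14 were measured and 1, AT4G25770, met the rule, against 0.444% of all probe sets. It lies directly beside AT4G25780 and measured 6.92, 7.14 and 7.23 on induced LL arrays and 6.57, 6.31 and 6.33 on induced LD arrays. Its other 18 arrays lay between 5.14 and 6.21, a gap of 0.09. Ethanol minus mock in ALC::TOC1 was 1.06 ± 0.15 in LL and 1.08 ± 0.15 in LD. AT4G25770 was higher in LL by 0.69 ± 0.15 under induction (limma adjusted p 0.00159) and by 0.71 ± 0.15 in ALC::TOC1 mock seedlings (limma adjusted p 0.00119).

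The gene on the other side of AT4G25780 is AT4G25790, a second CAP gene. It averaged 4.10 on induced arrays and 3.79 on the others, with overlapping ranges. Over the 13 measured neighbours besides AT4G25770, the mean of induced arrays differed from that of the other arrays by −0.18 to 0.40. AT5G55790, directly beside AT5G55800, was higher in ALC::TOC1 than in wild type without induction. The mock difference was 0.87 ± 0.18 in LL (limma adjusted p 0.00715) and 1.03 ± 0.18 in LD (limma adjusted p 0.00162). Between genotypes under mock, 2 of the 14 neighbours were called in LL, the second being AT4G25770 at 0.55 ± 0.15, and 1 in LD, against 5.96% and 5.53% of all probe sets. Of the 14, 3 were called higher in LL under induction (AT4G25770, AT1G01910 at 0.29 and AT5G67050 at 0.40) and 0 lower, against 11.2% and 10.7% of all probe sets.

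**Figure D5:**
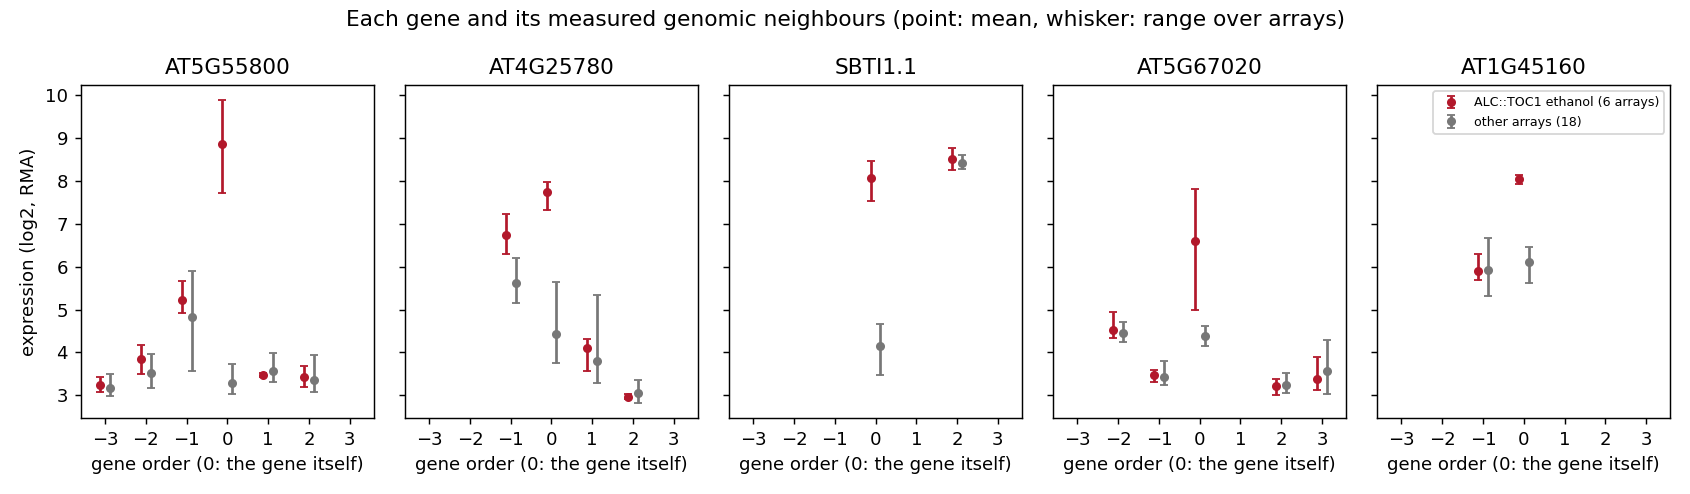
Log2 level of each gene (position 0) and of its measured neighbours by gene order, as the mean and range of the 6 ALC::TOC1 ethanol arrays (red) and of the 18 other arrays (grey). Positions with no point had no named probe set. Away from position 0, the ranges separate only at AT4G25770, with a gap of 0.09.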

How the data were processed

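Whole-seedling RNA was measured on 24 one-colour arrays. The deposited values are log2 levels per probe set, made by the authors with RMA in the package affy per the submitters' processing notes, with no version stated. In RMA, probe signals are background-corrected, quantile-normalised and summarised per probe set. Gene order was taken from the RefSeq annotation (TAIR10.1), and no coordinates are printed. Of 22810 probe sets, 64 controls were left out. The platform annotation gave 1 gene name for 13513, several for 503 and none for 8730. Precision is limited by the number of arrays.

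All 24 arrays were fitted in limma 3.58.1 (R 4.3.3, lmFit and eBayes), with a mean per group and 16 residual and 4.87 prior degrees of freedom. Two-sided p-values were adjusted by Benjamini-Hochberg within each of 10 comparisons, called under 0.05. The fit was tested on simulated data. Differences between the induced and other arrays, which chose the genes, carry no p.

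The genes and gene lists were chosen with earlier results of these data known. Besides the 5 genes, the text names the 8 named genes with the largest gap, the 3 probe sets on either side of the threshold, the 8 named genes with the most similar and 3 with the least similar profile, and the called or brightest members of each list. AT3G62780, AT1G20030, UGT85A5, AT5G22390, AT4G25770 and AT5G55790 were named after their values were seen. A search for promoter motifs was planned but not run, since no promoter sequences were used here.

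The alternatives were a filter at a mean above 5, quantile normalisation again, centring on the median, trend and robust eBayes, array weights, a replicate block, a GAPDH covariate, the compared groups alone and each array left out.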

Additional observations from a re-analysis of the deposited data

Results flagged for a closer look

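The light difference of the ethanol effect in ALC::TOC1 was 1.98 for AT5G67020 and 1.59 for AT5G55800 (log2). They were picked out because the ethanol effect differed between LL and LD (limma adjusted p 0.000281 and 0.00137). That test shares its induced arrays with the light difference under induction. After subtracting wild type, the light differences were 2.03 for AT5G67020 and 2.01 for AT5G55800 (limma adjusted p 0.0215 for both). Both of those calls were lost without induced LL array 3 (limma adjusted p 0.0521), and that of AT5G55800 also with the GAPDH covariate (limma adjusted p 0.0691). The contribution of RNA quality to these differences was examined only through the GAPDH covariate, and that of cell type makeup was not tested.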

How the results depend on the processing

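The LL minus LD differences of AT5G67020 and AT5G55800 under induction, and those of their ethanol effect, kept direction and call under every alternative that gave a value (filtering at a mean above 5 removes both genes). Of calls for the light difference of the ethanol effect, 228 became 1102 with array weights and 493 with the compared groups alone. For the light difference of the interaction, 43 became 18 with the filter, 68 with centring, 1025 with array weights and 11 with the covariate. Wild-type ethanol calls in LL, 3591, became 2130 with the covariate and 2183 with the compared groups alone. Mock genotype calls in LL, 1355, became 2085 with array weights, 327 with the covariate and 597 with the compared groups alone, and those in LD, 1258, became 3960 with array weights. With single arrays left out, the counts ran from 111 to 240 (ethanol effect), 2 to 393 (interaction), 423 to 2006 (mock genotype, LL) and 658 to 1370 (LD). The lowest, 2, came without induced LL array 3 and the highest, 393, without induced LL array 1. After centring, the higher direction made up 50.5% of calls in place of 39.5% (ethanol effect), 75.0% in place of 53.5% (interaction, 65.6% with quantile normalisation), 38.2% in place of 50.7% (wild-type ethanol, light) and 63.8% in place of 42.8% (wild-type ethanol effect, LD). Samples with the same replicate number did not deviate together (median correlation −0.002 over 84 pairs), so the numbers were not taken as pairs. The replicate block left the light difference of AT5G67020 under induction at 2.08 and ended the call of AT1G45160 for ethanol in wild-type LD (limma adjusted p 0.051). That call was also lost with quantile normalisation (0.0793) and centring (0.142). Calls appeared for SBTI1.1 under mock in LD with array weights (0.0107), for AT5G55800 in wild-type ethanol light with centring (0.0351) or the groups alone (0.0464), and for AT1G45160 in wild-type mock light with array weights (0.0372) or the covariate (0.0209) and in wild-type LL ethanol with array weights (0.0379). Uncalled differences near 0 changed sign. With quantile normalisation these were −0.0583, −0.0435 and −0.0208 for AT5G55800, AT4G25780 and SBTI1.1 in ALC::TOC1 mock light, and for AT5G67020 −0.014 (wild-type ethanol light) and 0.0642 (wild-type ethanol, LD). Array weights gave −0.0948 for AT4G25780 and −0.0078 for SBTI1.1 in mock light, and 0.0433 for AT5G67020 in wild-type LD ethanol. Centring gave 0.03 for SBTI1.1 and 0.1121 for AT5G67020 in wild-type LD ethanol, and 0.0031 for SBTI1.1 under mock in LL. The covariate gave −0.0837 (AT5G55800), −0.0089 (AT4G25780) and −0.0153 (SBTI1.1) in mock light, −0.1674 and 0.14 for AT5G55800 in wild-type mock light and LL ethanol, 0.0038 for AT5G67020 in wild-type LD ethanol, 0.1012 for SBTI1.1 and 0.0257 for AT1G45160 under mock in LL and LD, and −0.1577 for the SBTI1.1 interaction. With single arrays left out, ALC::TOC1 mock light ran from −0.1334 to 0.2195 (AT5G55800), −0.2367 to 0.1424 (AT4G25780), −0.099 to 0.143 (SBTI1.1) and −0.014 to 0.2149 (AT5G67020), and wild-type mock light from −0.0535 to 0.0873 (AT5G55800). Wild-type ethanol ran from −0.2062 to 0.019 (SBTI1.1) and −0.0854 to 0.0631 (AT5G67020) in LD and from −0.0922 to 0.0023 (AT5G67020) in LL. Mock genotype ran from −0.0726 to 0.0655 (SBTI1.1, LL) and −0.1215 to 0.2315 (AT5G55800, LD), and the SBTI1.1 interaction from −0.1842 to 0.1928. The cause of these changes was not tested.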
